A study of Arabidopsis thaliana with 12 samples.

Results

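Transcript counts of Arabidopsis thaliana plants that overexpress GRF1 were compared, across all loci, with those of plants whose labels name mutations of GRF1, GRF2 and GRF3. The comparison used 6 of the series' 12 messenger RNA libraries, 3 in each of these groups, chosen by their sample titles. The first group carried a GRF1-GFP fusion gene behind the viral 35S promoter, which is active in most plant tissues, and is called GRF1_OE. The second group is called grf123. Its libraries are described as labelled grf123 because reads were counted to GRF3 in them at a level near that of GRF1_OE. All plants were of the Ws strain, grown on MS agar medium and harvested whole at 14 days. Wild-type libraries were not used, so a difference can come from either side. Each file listed 28775 loci, of which 17328 had enough counts to be tested. The labels did not say how many transgenic lines or plants stood behind a library, and gave no mutant alleles. They mention a complete-block layout, randomized, with 3 replications but do not say whether a replicate number marks a block or a separate sowing, so p-values measure the spread between these libraries, which may be technical.

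Growth-regulating factors (GRFs) are plant transcription factors with a QLQ and a WRC domain. They act together with GRF-interacting factors (GIFs), which are transcriptional coactivators, and the microRNA miR396 cuts the transcripts of most family members. They are known for promoting cell proliferation in young leaves and other growing organs. In this tissue, a whole seedling, transcripts of leaves, shoot apex and roots are measured together, so fewer cells of a type and less RNA per cell cannot be told apart.

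GRF1 (AT2G22840, chr2:9728480-9731301 in the TAIR10.1 annotation) had 729, 1427 and 1169 counts in GRF1_OE replicates 1, 2 and 3 and 48, 26 and 146 in the libraries labelled grf123. In counts per 1000000 gene counts, scaled with TMM factors (CPM), these were 118, 149 and 189 against 7.89, 8.02 and 10.2. Every GRF1_OE library was far above every library labelled grf123, and the log2 fold change was 4.07 (SE 0.18; edgeR adjusted p = 4.49e-09). These counts do not separate the endogenous gene from the transgene, and GRF1 overlaps a locus on the other strand whose reads cannot be told apart without strand information.

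GRF3 had 29.5, 24.7 and 28.4 CPM in GRF1_OE and 25, 24.1 and 20 CPM in the libraries labelled grf123. The groups overlapped, and the log2 difference of 0.28 (SE 0.13) did not pass the test (edgeR adjusted p = 0.152). The libraries labelled as mutant in GRF3 thus had about as many reads counted to GRF3 as those of an overexpressor of another gene. Which part of the gene an allele could still transcribe is not known here. GRF3 also overlaps a locus on the other strand, whose reads cannot be told apart without strand information. GRF2 was near the floor in all 6 libraries, with 8, 3 and 4 counts in GRF1_OE and 5, 4 and 11 in the libraries labelled grf123, and was not tested.

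Among the other family members, GRF4 had 6.45 ± 1.09 CPM (SD, n = 3) against 6.34 ± 1.25, and GRF5 had 2.54 ± 1.36 against 3.91 ± 0.131. Neither passed the test (edgeR adjusted p = 0.958 and 0.291), and neither did GRF9 (log2 difference -0.45, SE 0.40). GRF6, GRF7 and GRF8 were under the count filter, at means of 0.551 to 1.49 CPM in GRF1_OE and 0.579 to 1.43 in the libraries labelled grf123. GIF1, the coactivator also known as ANGUSTIFOLIA3, had 13.8, 11.6 and 13.2 CPM in GRF1_OE and 16.6, 15.7 and 18.4 in the libraries labelled grf123. The groups did not overlap, but the log2 difference of -0.43 lay at the threshold (edgeR adjusted p = 0.0503), and it passed with RLE factors (0.0479), without ribosomal RNA (0.0485) and with the trend of length (0.0409) or GC content (0.0181) removed. GIF2 (22.9 ± 1.02 CPM against 21.7 ± 0.709) and GIF3 (3.7 ± 0.875 against 4.43 ± 0.102) did not pass.

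**Figure D1:**
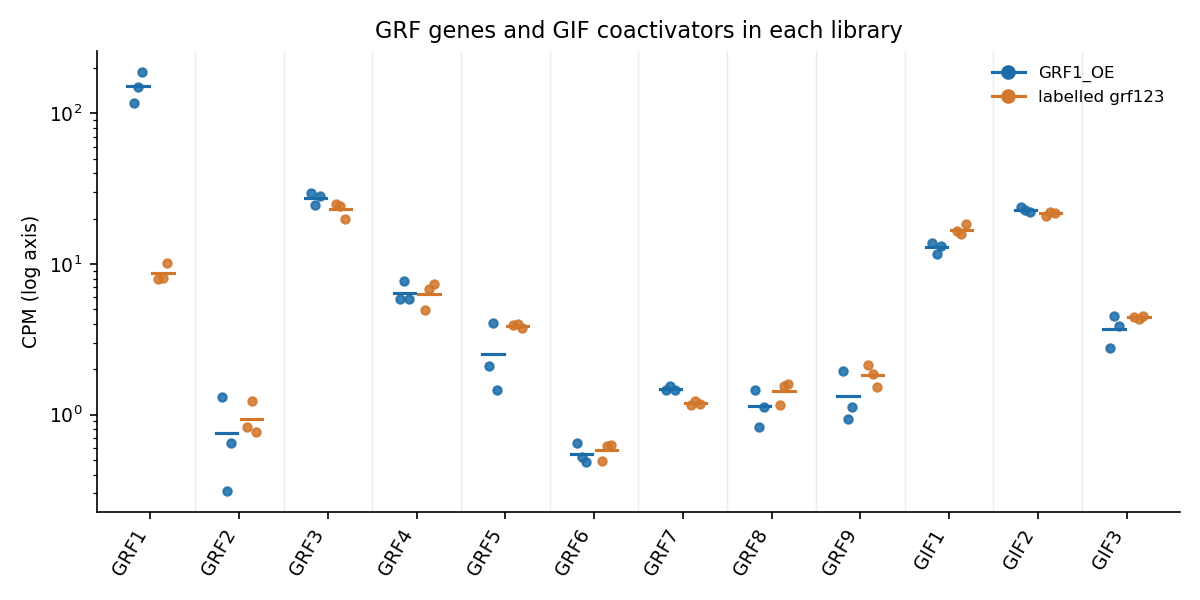
CPM of the 9 GRF genes and the 3 GIF coactivators in each library on a log axis; points are libraries and bars are means of 3. GRF1 stands at 118 to 189 CPM in GRF1_OE and 7.89 to 10.2 CPM in the libraries labelled grf123, while the points of GRF3 overlap between the groups.

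Of the 17328 genes tested, 3215 were called changed at an adjusted p under 0.05, which is 18.6% of those tested. A total of 1498 (8.64%) were higher in GRF1_OE and 1717 (9.91%) lower. These shares are the background for every count of called list members below. Changes of at least 2-fold were found in 261 genes in the higher direction (1.51%) and 344 in the lower (1.99%), and of at least 4-fold in 41 and 35. The median log2 fold change was 0.56 among genes called higher and -0.63 among those called lower, against 0.00 over all genes tested. The libraries of the groups did not overlap for 6291 genes (36.3%), and 3123 genes (18%) were both called and free of overlap. As 3123 of the 3215 called genes were free of overlap, its mention for a called gene below adds little to the call. No locus was at 0 in all libraries of a group with at least 10 counts in each library of the other.

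Composition of the libraries moved with the groups, and depth did not. Gene counts ran from 5965816 to 9134491 in GRF1_OE and from 3557137 to 14277574 in the libraries labelled grf123. Nuclear ribosomal RNA took 17.4 to 19.4% of gene counts in GRF1_OE and 21.6 to 24.4% in the libraries labelled grf123, and reads outside genes were 4.08 to 4.66% and 6.39 to 9.53% of unique reads. The first principal component of log2 CPM, with 54.1% of the variance, separated the groups, and the library labelled grf123 replicate 2, the shallowest, stood apart from its group on the second (28.7 against -19.1 and -15.1). Log2 changes fell with transcript length, with a Spearman correlation of -0.33 across 17316 genes, which share all 6 libraries and are not independent. The fifth of genes with the shortest transcripts had a median log2 change of 0.18, with 520 genes called higher and 188 lower, and the fifth with the longest a median of -0.17, with 97 higher and 686 lower. Median exonic length was 1425 bp in genes called higher and 2242 bp in those called lower, against 1792 bp over all genes tested. With the length trend removed, 2590 genes were called. The part of these differences in the results below was not tested beyond such refits.

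**Figure D2:**
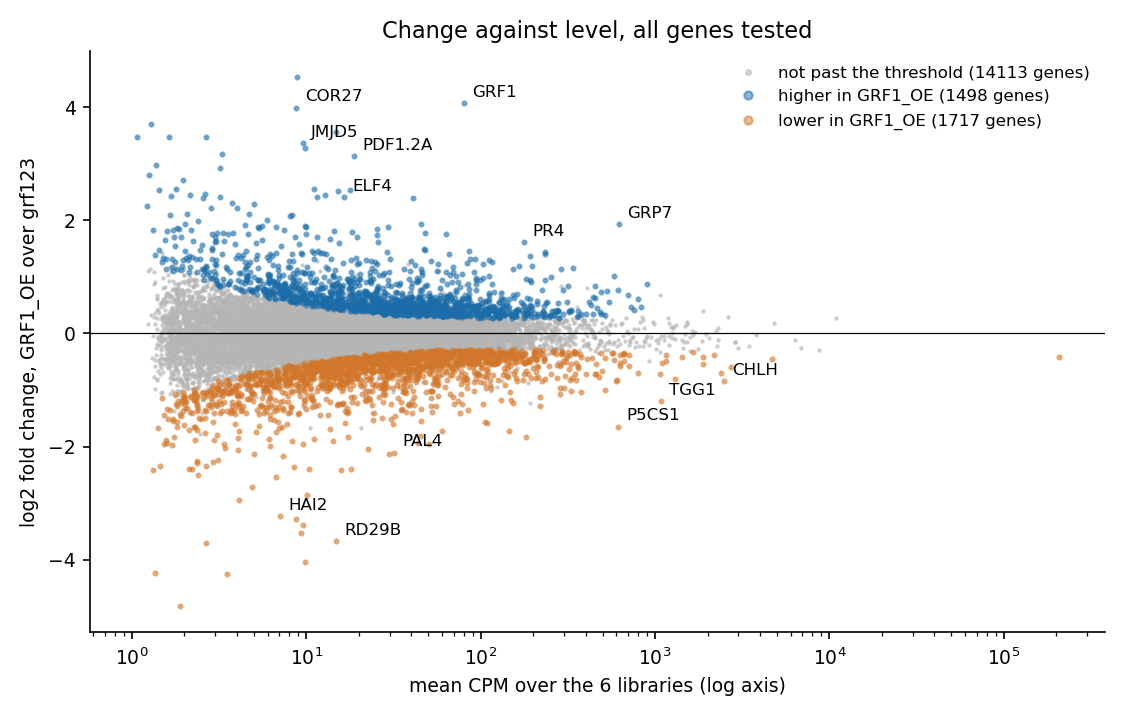
Log2 fold change of GRF1_OE over the libraries labelled grf123 against mean CPM over the 6 libraries (log axis) for the 17328 genes tested, with called genes coloured. GRF1 is at 4.07. Among the genes with a label in the plot, the clock output genes COR27 and JMJD5 come next on the higher side. RD29B and HAI2, of the abscisic acid response, lie lowest among them.

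The largest increases next to GRF1 itself included clock output genes, plant defensin and phosphate starvation genes. COR27, a cold-regulated and clock-regulated repressor, had 14.4, 17.6 and 17.3 CPM in GRF1_OE and 0.986, 1.54 and 0.905 CPM in the libraries labelled grf123 (log2 change 3.99, SE 0.25; edgeR adjusted p = 2.77e-09). DIN11, an oxygenase gene known for induction in the dark, had 15.1, 19.2 and 19.4 CPM against 1.48, 1.54 and 2.09 CPM (3.28, SE 0.22). PLA2A, a patatin-type lipid acyl hydrolase, had 16.2, 20.3 and 21.5 CPM against 2.3, 4.32 and 4.11 CPM (2.42, SE 0.21). In none of these genes did the groups overlap, which the rule for naming genes by size of change required. Among genes without a symbol in the annotation, which the rule for naming genes leaves out, and chosen after their values were seen, AT1G07050 (a CCT motif protein) had a mean of 17 CPM against 0.775 CPM (4.53) and AT5G23240 (a protein with a DNAJ domain) 27.1 CPM against 2.38 CPM (3.56).

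Among genes with a symbol in the annotation and an increase of at least 2-fold, those with the largest difference in CPM were GRP7, CP29, EBP, MT2A, PR4 and GRP8. CP29, a chloroplast RNA-binding protein, had 775 ± 52.3 CPM (SD, n = 3) in GRF1_OE and 385 ± 34.5 CPM in the libraries labelled grf123. EBP, an ethylene response factor of group VII, had 470 against 211 CPM (log2 change 1.16, SE 0.10), and the metallothionein MT2A 397 against 181 CPM (1.13, SE 0.10). No library of GRF1_OE was below a library labelled grf123 for these genes, which the rule that picked them required.

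The largest decreases included genes of the abscisic acid response, described further on, and HPL1, ICL and CEL2. HPL1, the hydroperoxide lyase that makes green leaf volatiles, had 1.62, 2.4 and 1.78 CPM in GRF1_OE and 11.2, 10.5 and 12.6 CPM in the libraries labelled grf123 (log2 change -2.54, SE 0.23; edgeR adjusted p = 2.74e-07). ICL, the isocitrate lyase of the glyoxylate cycle in germinating seedlings, had 5.02, 2.4 and 3.55 CPM against 11.3, 12 and 27.8 CPM (-2.40, SE 0.49; edgeR adjusted p = 0.0206). The groups did not overlap for either gene, which the rule that picked them required. Even so, the call of ICL was lost when any GRF1_OE library was left out (edgeR adjusted p = 0.0624 to 0.0983), and its log2 change was -1.73 without grf123 replicate 3. CEL2, a cellulase, had 0.324, 1.87 and 0.808 CPM against 4.6, 5.25 and 5.78 CPM (-2.23, SE 0.38), and its change was -3.18 without GRF1_OE replicate 2. Of genes without a symbol, AT3G28270 had a mean of 1.53 CPM against 17.1 CPM (-3.53) and the LEA family gene AT3G17520 had 0.393 CPM against 6.6 CPM (-4.25; -3.48 without grf123 replicate 3); both were chosen after their values were seen.

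Genes of the circadian clock changed in opposite directions by their usual time of day. The plant clock is a loop of repressors, in which CCA1 and LHY act around dawn and TOC1 and the evening complex of ELF3, ELF4 and LUX act towards dusk. Of 12 evening clock genes tested, 9 were higher in GRF1_OE and none lower, with a median log2 change of 1.2. The higher count was 7 with DESeq2, no count filter or the replicate block, and 7 or 8 with any single library left out. All 5 clock output genes were higher, with a median of 2.56. Of 10 morning genes tested, 6 were lower and 2 higher, with a median of -0.74. Over all genes tested, 8.64% were called higher and 9.91% lower, with a median of 0.00. The lists were chosen with earlier results of these data known, so their counts are descriptions and not independent tests. No label states the hour of harvest, so a shift in phase and a change in level cannot be told apart.

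ELF4 had 27.4, 27.2 and 28.6 CPM in GRF1_OE and 4.77, 4.63 and 5.64 CPM in the libraries labelled grf123 (log2 change 2.41, SE 0.16; edgeR adjusted p = 3.49e-09). PRR3, a pseudo-response regulator, had 40.7, 37.1 and 39.1 CPM against 11.5, 12 and 11.5 CPM (1.74, SE 0.13). FKF1, the blue-light receptor of the photoperiod pathway, had 52, 44.3 and 41.5 CPM against 12.3, 15.7 and 11.1 CPM (1.88, SE 0.14), and overlaps an antisense locus. All libraries of GRF1_OE were above all libraries labelled grf123 for each of the 3. Chosen after their values were seen, TOC1 had 124 against 49.8 CPM (1.32, SE 0.10), LUX 41.9 against 15.9 CPM (1.44, SE 0.13) and PRR5 56.4 against 23.3 CPM (1.28, SE 0.12). GI was the smallest of the evening calls, at 138 ± 0.96 against 115 ± 5.81 CPM (0.27, SE 0.09; edgeR adjusted p = 0.0472), and was lost under each leave-one-out fit (adjusted p = 0.0659 to 0.145). ZTL, LKP2 and CHE did not pass.

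Of the morning genes, LHY had 22.7, 17.7 and 26.7 CPM in GRF1_OE and 65.1, 52.5 and 43.9 CPM in the libraries labelled grf123 (log2 change -1.27, SE 0.17; edgeR adjusted p = 0.000108). PRR9, which peaks in the early day, had 18.1, 17.9 and 18.3 CPM against 35.8, 41.4 and 35 CPM (-1.03, SE 0.12). RVE2, a MYB-like gene related to CCA1, went the other way, with 13.1, 15.1 and 18.3 CPM against 4.6, 3.4 and 4.18 CPM (1.89, SE 0.20). No gene of these overlapped between groups. CCA1, chosen after its values were seen, had 81.3, 66 and 84.2 CPM against 179, 147 and 127 CPM (-0.97, SE 0.13). PRR7, also chosen after its values were seen, was higher, at 281 against 193 CPM (0.54, SE 0.09).

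The clock output genes hold the evening element, AAAATATCT, near their start. In a window of 250 bases before and 50 bases after the annotated start, searched on both strands, this motif was present in all 5 clock output genes tested and in 5 of 12 evening genes, against 3.07% of the 17316 genes tested that have such a window. It was present in 98 of 1496 genes called higher (6.55%), 46 of 1716 called lower (2.68%), and 31 of the 261 genes at least 2-fold higher (11.9%). The 5 output genes were listed with earlier results of these data known, so their share is a description only. The 250 bases before the start are shown for GRP7, which carries more than 1 copy, and for TOC1 and LUX, because these genes rose together. They come from the TAIR10.1 reference of the Columbia strain and run 5′ to 3′ towards the gene. The plants were Ws, whose sequence may differ. Capitals mark the evening element on either strand.
GRP7, chr2:9266558-9266807, minus strand: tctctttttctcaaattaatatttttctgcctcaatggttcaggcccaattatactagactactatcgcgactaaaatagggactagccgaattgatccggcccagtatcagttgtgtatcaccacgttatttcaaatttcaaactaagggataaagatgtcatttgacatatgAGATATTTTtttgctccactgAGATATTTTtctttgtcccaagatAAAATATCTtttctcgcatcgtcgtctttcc
TOC1, chr5:24674713-24674962, plus strand: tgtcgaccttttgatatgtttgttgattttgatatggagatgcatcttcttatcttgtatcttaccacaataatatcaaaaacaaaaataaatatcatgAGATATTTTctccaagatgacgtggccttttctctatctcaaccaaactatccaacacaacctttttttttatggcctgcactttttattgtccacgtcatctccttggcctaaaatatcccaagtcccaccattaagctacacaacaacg
LUX, chr3:17182792-17183041, plus strand: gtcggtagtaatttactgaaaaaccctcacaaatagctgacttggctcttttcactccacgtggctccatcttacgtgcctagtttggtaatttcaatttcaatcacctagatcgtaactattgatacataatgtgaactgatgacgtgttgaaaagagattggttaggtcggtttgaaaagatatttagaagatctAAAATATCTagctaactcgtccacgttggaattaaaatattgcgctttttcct

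GRP7, an RNA-binding protein that the clock controls, was among the most abundant of the genes that changed. It had 1110, 986 and 860 CPM in GRF1_OE and 210, 243 and 318 CPM in the libraries labelled grf123 (log2 change 1.93, SE 0.14; edgeR adjusted p = 1.57e-07). Its relative GRP8 had 377, 338 and 293 CPM against 152, 170 and 181 CPM (1.00, SE 0.11), and reads that fit both copies are not counted. JMJD5, a jumonji-domain demethylase that feeds back on the clock, had 18.5, 19.3 and 15 CPM against 1.31, 1.23 and 2.02 CPM (3.37, SE 0.23). AT4G33980 had 17.2, 18.2 and 20.7 CPM against 3.62, 4.01 and 2.65 CPM (2.56, SE 0.20). The groups did not overlap for any of the 5 output genes.

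**Figure D3:**
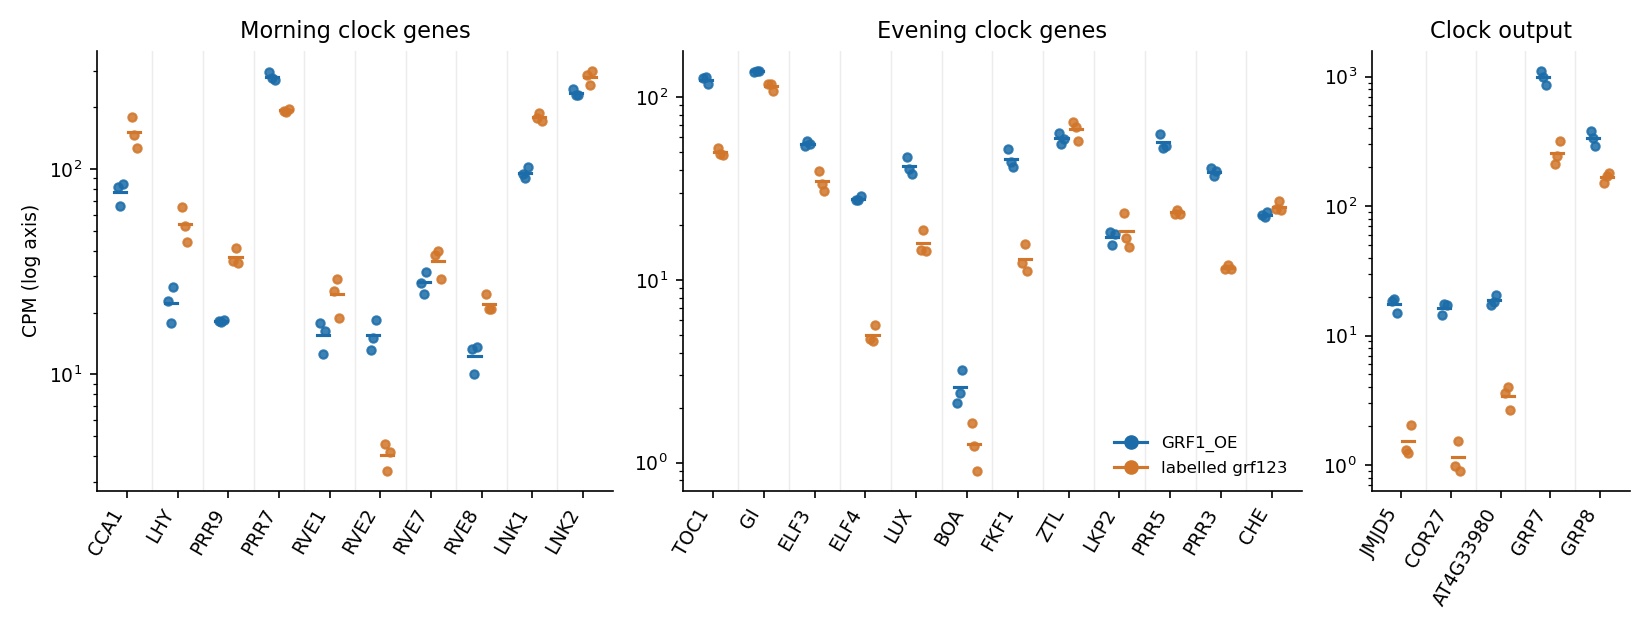
CPM of morning clock genes, evening clock genes and clock output genes in each library (log axis); points are libraries and bars are means of 3. Evening genes such as ELF4 and PRR3 and all 5 output genes lie higher in GRF1_OE, while CCA1, LHY and PRR9 lie lower.

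Light and flowering regulators downstream of the clock changed in both directions. B-box zinc finger proteins act in light signalling, and 13 of them were tested. Of these, 8 were lower in GRF1_OE and 2 higher, with a median log2 change of -0.62, beside 18.6% of all genes called. COL9, a repressor of the flowering gene CO, had 31.6, 31.6 and 27.5 CPM in GRF1_OE and 5.92, 6.17 and 4.53 CPM in the libraries labelled grf123 (log2 change 2.53, SE 0.16; edgeR adjusted p = 3.49e-09). The microProtein gene BBX30 had 1.3, 0.312 and 1.13 CPM against 4.11, 2.78 and 4.53 CPM (-2.25, SE 0.41). BBX32 had 0.81, 0.417 and 0.969 CPM against 2.47, 2.47 and 3.06 CPM (-1.98, SE 0.41). The groups were apart for all 3, although the counts of BBX30 and BBX32 in GRF1_OE were only 3 to 8.

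Of 13 flowering-time genes tested, 2 were higher and 3 lower, with a median log2 change of -0.07, beside 18.6% of all genes called. FT, the mobile flowering signal made in leaf phloem, had 4.7, 6.87 and 9.69 CPM in GRF1_OE and 2.3, 1.23 and 1.81 CPM in the libraries labelled grf123 (log2 change 1.92, SE 0.31; edgeR adjusted p = 0.000228). No GRF1_OE library was as low as a library labelled grf123. CDF1 and CDF3, DOF repressors of the photoperiod pathway chosen after their values were seen, were lower, at 18.2 against 35.3 CPM (-0.92, SE 0.14) and 26.9 against 48.9 CPM (-0.85, SE 0.12). SOC1, the integrator downstream of FT, had 89.4 against 94.5 CPM (-0.07, SE 0.10; edgeR adjusted p = 0.691), and CO itself did not pass (0.61, SE 0.42; edgeR adjusted p = 0.344). The calls of TEM1 (0.92) and FUL (-1.02) were lost in some leave-one-out fits (adjusted p up to 0.0786 and 0.0727), that of TEM1 also with all 12 libraries in the fit (0.379) and that of FUL with DESeq2 (0.0645), and without GRF1_OE replicate 1, grf123 replicate 1 or grf123 replicate 3 only 1 flowering gene was higher.

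Genes of the abscisic acid response were lower in GRF1_OE. Abscisic acid is the hormone of drought and seed maturation, and late embryogenesis abundant (LEA) proteins and clade A protein phosphatases are among its best known transcriptional markers. Of 24 such genes tested, 17 were lower and none higher, with a median log2 change of -1.02, beside 18.6% of all genes called. Without GRF1_OE replicate 3, 11 were called lower, and the median over the fits tried ran from -1.19 to -0.96. Summed over the list, the level was 892 to 961 CPM in GRF1_OE and 1750 to 2340 CPM in the libraries labelled grf123.

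RD29B, a classic drought marker, had 3.08, 1.15 and 2.91 CPM in GRF1_OE and 17.3, 26.2 and 38.8 CPM in the libraries labelled grf123 (log2 change -3.67, SE 0.46; edgeR adjusted p = 0.00238). HAI2, a phosphatase that dampens the hormone's signal, had 1.78, 1.35 and 0.969 CPM against 7.56, 14.2 and 16.2 CPM (-3.23, SE 0.32; edgeR adjusted p = 2.9e-06). P5CS1, the enzyme that commits glutamate to proline, had 293, 289 and 306 CPM against 744, 1030 and 1010 CPM (-1.65, SE 0.12; edgeR adjusted p = 1.23e-08). For these genes all libraries labelled grf123 were above all of GRF1_OE, which the rule for naming genes by size of change required. Replicate 1 was the lowest of the libraries labelled grf123 in each. P5CS1 overlaps an antisense locus. RD22 (218 against 444 CPM; -1.02, SE 0.10) was also lower.

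The LEA gene LEA7 had 4.54, 0.417 and 0.646 CPM in GRF1_OE and 13.8, 17.3 and 21 CPM in the libraries labelled grf123. Its log2 change was -3.39 (SE 0.66; edgeR adjusted p = 0.0235), and -5.08 without GRF1_OE replicate 1. The call was lost without GRF1_OE replicate 3 (0.082) or grf123 replicate 2 (0.0626), with all 12 libraries in the fit (0.052), with no count filter (0.0505), and with the replicate block (0.136). Chosen after their values were seen, HAI1 (2.74 against 12 CPM; -2.17, SE 0.34), PP2CA (23.4 against 55.7 CPM; -1.26, SE 0.21) and the dehydrin RAB18 (25.7 against 65.4 CPM; -1.33, SE 0.22) were lower, RAB18 not with all 12 libraries in the fit (edgeR adjusted p = 0.103). NCED3, the rate-limiting enzyme of the hormone's synthesis, had 5.83, 6.14 and 5.65 CPM against 10.4, 31.5 and 25.8 CPM (-1.90, SE 0.41; edgeR adjusted p = 0.0233), and lost its call without any one of the GRF1_OE libraries (0.0978 to 0.124). The transcription factors ABI5 (0.18, SE 0.32), ABF4 (-0.11, SE 0.11) and RD26 (-0.04, SE 0.15) did not pass.

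The abscisic acid response element, searched as ACGTGTC on both strands in the same window, was present in 9 of the 24 tested genes of this list, against 5.09% of all genes tested. It was present in 128 of 1716 genes called lower (7.46%), 71 of 1496 called higher (4.75%) and 33 of the 344 genes at least 2-fold lower (9.59%). The motif was not particular to this list. It was held by 6 of 10 morning clock, 6 of 23 iron, 3 of 12 evening clock and 7 of 37 nuclear photosynthesis genes. Expansins (0 of 13) and aliphatic glucosinolate genes (0 of 24) were among the lists without it. The 250 bases before the start are shown for RD29B, for LEA4-5, which carries 2 copies, and for PP2CA, with the element in capitals, from the same reference.
RD29B, chr5:21236771-21237020, plus strand: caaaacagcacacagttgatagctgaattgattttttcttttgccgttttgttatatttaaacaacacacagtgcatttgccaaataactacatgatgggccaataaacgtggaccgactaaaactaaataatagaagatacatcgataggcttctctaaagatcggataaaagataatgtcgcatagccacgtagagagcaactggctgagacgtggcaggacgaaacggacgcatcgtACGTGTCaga
LEA4-5, chr5:2090431-2090680, minus strand: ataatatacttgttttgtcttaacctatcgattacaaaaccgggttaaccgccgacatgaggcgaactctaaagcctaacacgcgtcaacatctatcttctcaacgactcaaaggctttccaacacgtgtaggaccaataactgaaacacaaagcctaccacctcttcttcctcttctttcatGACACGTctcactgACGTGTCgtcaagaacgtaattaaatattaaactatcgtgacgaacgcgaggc
PP2CA, chr3:3585851-3586100, minus strand: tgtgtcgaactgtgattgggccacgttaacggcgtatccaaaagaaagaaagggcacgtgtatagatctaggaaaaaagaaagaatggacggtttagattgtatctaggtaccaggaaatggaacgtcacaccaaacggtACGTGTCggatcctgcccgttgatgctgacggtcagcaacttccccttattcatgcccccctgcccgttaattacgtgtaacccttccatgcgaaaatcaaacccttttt
LEA4-5 had 2.11, 1.35 and 0.485 CPM in GRF1_OE and 3.62, 6.17 and 4.66 CPM in the libraries labelled grf123 (log2 change -1.80, SE 0.37; edgeR adjusted p = 0.00201), with no overlap between the groups.

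Cold and heat genes were called in both directions, beside 18.6% of all genes called. Of 10 genes of the CBF cold pathway tested, 2 were higher and 3 lower (median log2 change -0.14; -0.67 without grf123 replicate 1, and -0.59, -0.53 and -0.45 without GRF1_OE replicates 1, 2 and 3), and all 3 CBF genes were under the count filter. GOLS2, a galactinol synthase, had 1.46, 2.19 and 1.13 CPM in GRF1_OE against 5.75, 18.8 and 23 CPM in the libraries labelled grf123 (-3.28, SE 0.67; edgeR adjusted p = 0.0275), and lost its call without any one GRF1_OE library or grf123 replicate 2 (adjusted p = 0.0674 to 0.13). GOLS1 was lower with less spread (18.5 against 36.4 CPM; -0.97, SE 0.12). Without grf123 replicate 1, 6 genes of the list were lower, without GRF1_OE replicate 1 none was higher, and without GRF1_OE replicate 3 or grf123 replicate 3 only 1 was. Of 17 heat-shock genes tested, 2 were higher and 2 lower (median -0.18), with 1 lower without any single library but grf123 replicate 3. HSFA3, a heat-shock factor, had 9.72, 9.16 and 10 CPM against 3.62, 4.63 and 3.13 CPM (1.43, SE 0.22), while HSFA6A had 0.486, 0.417 and 0.162 CPM against 2.47, 6.48 and 5.99 CPM (-3.71, SE 0.48). Both were free of overlap, although HSFA6A in GRF1_OE rested on 1 to 4 counts per library.

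Phosphate starvation genes were mostly higher in GRF1_OE, with transporters and the negative regulator PHO2 lower. Plants short of phosphate make noncoding RNAs that sequester miR399, replace phospholipids by galactolipids and sulfolipids, and secrete phosphatases. Of 24 such genes tested, 13 were higher and 4 lower, with a median log2 change of 0.42, beside 18.6% of all genes called. The higher count was 9 with DESeq2 or without GRF1_OE replicate 3. It was 10 without GRF1_OE replicate 1 or grf123 replicate 3, and the lower count stayed at 4 in these fits. IPS1, a noncoding RNA that binds miR399, had 4.7, 5.42 and 8.56 CPM in GRF1_OE and 1.48, 1.23 and 1.11 CPM in the libraries labelled grf123 (2.30, SE 0.33; edgeR adjusted p = 7.23e-05). The phosphatase genes AT1G17710 (PEPC1 in the annotation) and PS2 had 5.33 against 1.07 CPM (2.42, SE 0.41) and 13.1 against 3.1 CPM (2.08, SE 0.23). PEPC1 rested on 3 to 10 counts in the libraries labelled grf123. No library of GRF1_OE was as low as a library labelled grf123 for these 3 genes.

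Other members were chosen after their values were seen. AT4, another RNA of the IPS1 type, had 19.6 against 8.12 CPM (log2 change 1.32, SE 0.17), and SPX1, a phosphate sensor, 51.2 against 26.7 CPM (0.96, SE 0.14). PHO2, the ubiquitin-conjugating enzyme that miR399 targets, had 124, 109 and 116 CPM in GRF1_OE and 184, 202 and 218 CPM in the libraries labelled grf123 (-0.79, SE 0.10; edgeR adjusted p = 1.92e-05). PHT1;1, a root uptake transporter, had 9.68 against 15.5 CPM (-0.71, SE 0.17) and PHO1, which loads phosphate into the xylem, 48.4 against 78.3 CPM (-0.69, SE 0.13). The groups did not overlap for these genes. Reads that fit PHT1;1 and its near-identical neighbours are not counted, so its level is uncertain.

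**Figure D4:**
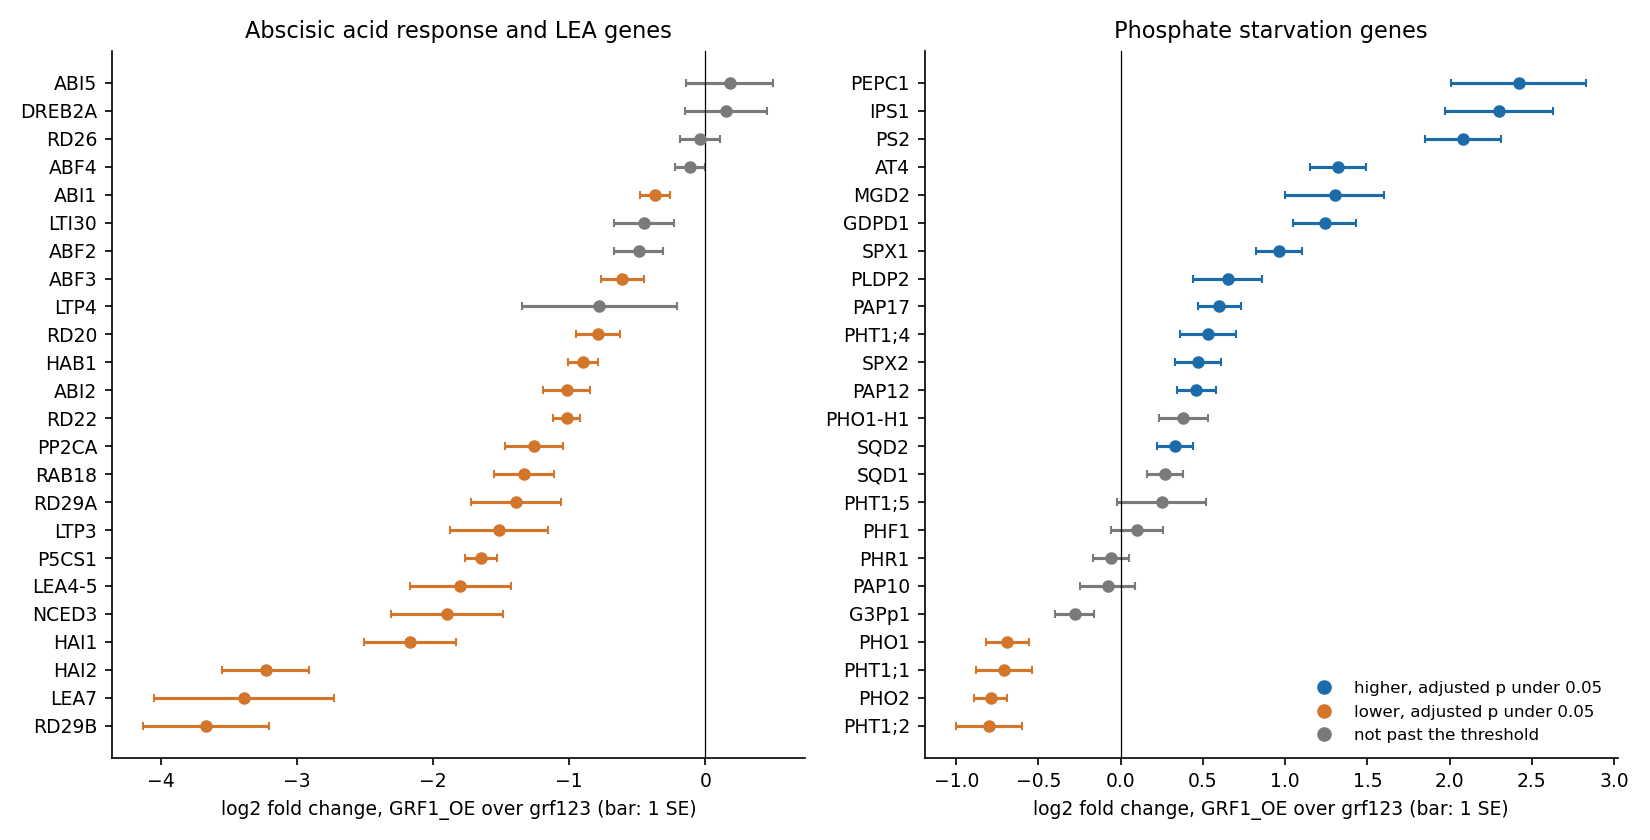
Log2 fold change (point) with 1 SE (bar) for the 24 abscisic acid response and LEA genes and the 24 phosphate starvation genes tested, coloured by call. On the left 17 genes lie below 0 and past the threshold and none above; on the right 13 lie above and 4 below.

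Defence genes that respond to jasmonate and ethylene together were higher in GRF1_OE. All 6 genes of this list that were tested were called higher, with a median log2 change of 2.07, which ran from 1.32 without grf123 replicate 3 to 2.94 without grf123 replicate 1. PDF1.2A, an antifungal defensin, had 36.5, 26.6 and 36.8 CPM in GRF1_OE and 4.93, 4.63 and 2.85 CPM in the libraries labelled grf123 (3.13, SE 0.21; edgeR adjusted p = 4.23e-09). PR4, a hevein-like protein, had 268, 251 and 292 CPM against 62.1, 84.9 and 113 CPM (1.62, SE 0.18; edgeR adjusted p = 0.000295). The groups were apart for both, which the rule for naming genes by size of change required. ORA59, the transcription factor that joins both hormones at PDF1.2, had 8.49 against 2.67 CPM (1.89, SE 0.30) and was chosen after its values were seen. PDF1.2B and PDF1.2C are near-identical to PDF1.2A, so their counts (1 to 20 per library) are uncertain, and PDF1.2B lost its call without grf123 replicate 3 (1.18 in place of 2.25; edgeR adjusted p = 0.149).

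Of 21 genes of jasmonate synthesis and wounding, 6 were higher and 2 lower, with a median log2 change of 0.23. The share called over all genes tested was 18.6%, also for the salicylic acid and touch lists below. AOC2, an allene oxide cyclase, had 90.9, 63.7 and 62.8 CPM in GRF1_OE and 15.1, 19.1 and 21.7 CPM in the libraries labelled grf123 (1.93, SE 0.16; edgeR adjusted p = 1.66e-06), and its copy AOC1 35.2 against 14.2 CPM (1.27, SE 0.14). VSP2, a vegetative storage protein of the other branch of the response, had 6.97, 10.2 and 10.2 CPM against 30.1, 28.7 and 50.1 CPM (-2.04, SE 0.24). These genes did not overlap between groups. MYC2, the regulator of that branch, had 43.9 against 41.6 CPM and did not pass (0.08, SE 0.11; edgeR adjusted p = 0.646; chosen after its values were seen). Of 13 salicylic acid genes, 1 was lower and none higher; it was PBS3, with 3.28 against 8.5 CPM (-1.38, SE 0.22). PR1 ranged from 17.8 to 106 CPM within the libraries labelled grf123. Of 12 touch and handling genes, 4 were higher, among them WRKY18 (14.9 against 6.66 CPM; 1.07, SE 0.19) and TCH3 (26.5 against 13.8 CPM; 0.96, SE 0.14). With all 12 libraries in the fit none of these 4 passed, and with the length trend removed or without GRF1_OE replicate 2, GRF1_OE replicate 3 or grf123 replicate 3 only 2 did.

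Expansins loosen cell walls, and of 13 tested 7 were lower and 1 higher in GRF1_OE, with a median log2 change of -0.58. The share called over all genes tested was 18.6%. The gene called higher lost its call without 4 of the 6 libraries. EXPB1 had 1.3, 1.04 and 0.485 CPM in GRF1_OE and 2.96, 9.26 and 9.68 CPM in the libraries labelled grf123 (-2.94, SE 0.47; edgeR adjusted p = 0.00104). EXPB3 had 18.8, 24.9 and 22.3 CPM against 51.3, 64.5 and 61.7 CPM (-1.41, SE 0.13), and EXPA4 21.7, 36.1 and 37.8 CPM against 67.7, 75.3 and 71.1 CPM (-1.15, SE 0.16). No library of GRF1_OE reached a library labelled grf123 for these genes, as for 3123 of the 3215 genes called. XTH genes encode enzymes that cut and rejoin xyloglucan, and 4 of 14 were higher and none lower (median 0.26; 2 without GRF1_OE replicate 3). They included TCH4 (33 against 13.9 CPM; 1.28, SE 0.21), which is named for its induction by touch and lost its call with all 12 libraries in the fit (edgeR adjusted p = 0.317), and XTH24 (149 against 74.8 CPM; 1.01, SE 0.14).

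Cell cycle genes, which GRFs are known to affect through leaf cell proliferation, showed few differences. Of 33 tested, 3 were lower and none higher, with a median log2 change of -0.12 against 0.00 over all genes and with 18.6% of all genes called. CYCD1;1, a D-type cyclin, had 15.7, 17.6 and 16.2 CPM in GRF1_OE and 24.8, 27.8 and 27.8 CPM in the libraries labelled grf123 (-0.69, SE 0.13; edgeR adjusted p = 0.000834). The call of RBR1 (-0.39) was lost without GRF1_OE replicate 1, grf123 replicate 1 or grf123 replicate 2 (edgeR adjusted p = 0.0501 to 0.106) and with the length trend removed (-0.20; 0.194), and that of CYCD3;2 (-0.33) without any library but grf123 replicate 3, so that 1 gene of the list was called without GRF1_OE replicate 1, grf123 replicate 1 or grf123 replicate 2. The mitotic cyclin CYCB1;1 had 5.83 against 6 CPM (-0.03, SE 0.22). Of 12 organ size genes, ANT (13.6 against 22.7 CPM; -0.73, SE 0.15) and CYP78A6 were lower, the latter not without GRF1_OE replicate 1, grf123 replicate 1 or grf123 replicate 2. Of 7 CIN TCP genes, which restrain leaf growth, 3 were lower, led by TCP10 (34 against 52.2 CPM; -0.61, SE 0.11); only TCP10 passed with DESeq2 or without GRF1_OE replicate 2. None of 8 KNOX and AS genes passed.

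Auxin transporters were lower in GRF1_OE. Of 12 tested, 8 were lower and none higher, with a median log2 change of -0.51 (5 lower without grf123 replicate 2). The share called lower over all genes tested was 9.91%. ABCB15 had 8.75, 13.7 and 10.3 CPM in GRF1_OE and 39.6, 49.4 and 56.7 CPM in the libraries labelled grf123 (-2.13, SE 0.17; edgeR adjusted p = 1.57e-07). LAX2, an auxin influx carrier of leaf veins, had 6.16, 11.4 and 9.53 CPM against 21.4, 24.4 and 21.1 CPM (-1.25, SE 0.18). The groups were apart, and GRF1_OE replicate 1 was the lowest library for both. Of 23 auxin response genes, 6 were lower and none higher (median -0.30), among them IAA14 (12.5 against 24.3 CPM; -0.91, SE 0.15); 2 were lower without GRF1_OE replicate 2 or grf123 replicate 2 and 3 without GRF1_OE replicate 3 or grf123 replicate 1. The SAUR genes on that list are near-identical copies.

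Genes of the other growth hormones were called in both directions, beside 8.64% of all genes tested called higher and 9.91% lower. Of 15 gibberellin genes, 3 were higher and 1 lower (median log2 change -0.04). GA2OX2, which inactivates gibberellin, had 11.5, 5.1 and 8.56 CPM in GRF1_OE and 1.81, 2.16 and 2.44 CPM in the libraries labelled grf123 (1.88, SE 0.31; edgeR adjusted p = 0.000278), with no overlap. GASA1, a gibberellin-regulated peptide, had 117 against 49.1 CPM (1.25, SE 0.14). Of 8 cytokinin genes 2 were higher (1 without grf123 replicate 2), among them the synthesis gene IPT3 (22.8 against 14.7 CPM; 0.63, SE 0.14). Of 15 brassinosteroid genes, BEE1 was higher (11.9 against 5.69 CPM; 1.12, SE 0.20) and the synthesis gene DWF4 lower (-0.67), the latter not with DESeq2 (adjusted p = 0.0578) or without GRF1_OE replicate 1, GRF1_OE replicate 3 or grf123 replicate 3.

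Genes of phenylpropanoid synthesis and of xylem were lower in GRF1_OE. Of 14 genes of lignin monomer synthesis, 9 were lower and none higher, with a median log2 change of -0.46. The share called lower over all genes tested was 9.91%. PAL4, a phenylalanine ammonia lyase, had 10.5, 12.1 and 12.9 CPM in GRF1_OE and 51.4, 58.3 and 46.2 CPM in the libraries labelled grf123 (-2.11, SE 0.13; edgeR adjusted p = 2.77e-09). PAL1 had 115 against 207 CPM (-0.84, SE 0.09) and C4H, the next enzyme of the pathway, 106 against 181 CPM (-0.77, SE 0.10). All libraries labelled grf123 were above all of GRF1_OE. Of 9 genes of xylem and secondary wall, 6 were lower (median -0.83), and 3 without GRF1_OE replicate 1 or grf123 replicate 3. The wall cellulose synthase CESA7 had 6.16, 10.3 and 8.72 CPM against 15.9, 13.9 and 18.7 CPM (-0.96, SE 0.19; edgeR adjusted p = 0.00122). Summed CPM of this list was 62.9, 97.8 and 96.1 in GRF1_OE and 138, 124 and 150 in the libraries labelled grf123. Of 12 flavonoid genes 3 were lower (median -0.38), with the first enzyme, CHS, at 25.9 against 46.7 CPM (-0.88, SE 0.18).

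Several chlorophyll synthesis genes were lower. Of 20 genes tested, 8 were lower and 2 higher in GRF1_OE, with a median log2 change of -0.13, beside 18.6% of all genes called. HEMA1, the glutamyl-tRNA reductase that sets the flow into the pathway, had 134, 125 and 124 CPM in GRF1_OE and 248, 356 and 325 CPM in the libraries labelled grf123 (-1.28, SE 0.12; edgeR adjusted p = 3.58e-07). CHLH, the large subunit of magnesium chelatase, had 1600, 1800 and 1890 CPM against 3320, 3530 and 2720 CPM (-0.85, SE 0.12; edgeR adjusted p = 5.67e-05), and CAO, which makes chlorophyll b, had 158 against 256 CPM (-0.69, SE 0.10). The groups were apart. The other chelatase subunits CHLI1 (0.03, SE 0.10) and CHLD (0.02, SE 0.10) did not pass. The calls of the 2 higher genes, HEMB1 and HEMC, were not kept together without any single library other than grf123 replicate 3.

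Of 37 nuclear genes of the photosynthetic apparatus, 6 were lower and 1 higher, with a median log2 change of -0.16. Over all genes tested 18.6% were called, so this share is near the background. With the length trend removed 16 were lower, the median then being -0.29. The antenna gene LHCB2.2 had 944 against 1650 CPM (-0.81, SE 0.12) and LHCB4.2 202 against 348 CPM (-0.78, SE 0.11). RBCS1B, a small subunit of Rubisco, was the gene called higher (1160 against 637 CPM; 0.87, SE 0.11). RBCS and LHCB genes have near-identical copies, so the split of reads among them is uncertain.

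Starch and carbon status genes were also called, beside 18.6% of all genes tested. Of 21 starch genes, 7 were higher and 3 lower (median log2 change 0.11; 3 higher without GRF1_OE replicate 2 and 4 without grf123 replicate 2). GBSS1, which makes amylose and is known as a clock target, had 35.6, 38.8 and 52 CPM in GRF1_OE and 108, 96.6 and 93.2 CPM in the libraries labelled grf123 (-1.24, SE 0.13; edgeR adjusted p = 1.29e-06). PHS2, a cytosolic phosphorylase, had 240 against 123 CPM (0.97, SE 0.10), and SEX1, which phosphorylates starch and was chosen after its values were seen, 537 against 345 CPM (0.64, SE 0.10). Of 11 dark and sugar starvation genes, 5 were higher and none lower (median 0.45; 3 higher without any one of the GRF1_OE libraries). SEN1 had 112, 120 and 138 CPM against 49.1, 57.1 and 33 CPM (1.46, SE 0.17) and DRM2 377, 333 and 308 CPM against 121, 144 and 112 CPM (1.44, SE 0.11). No libraries overlapped for SEN1, DRM2, GBSS1 or PHS2.

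Genes of aliphatic glucosinolates, sulfur-containing defence compounds of the cabbage family, were lower where they passed. Of 24 tested, 8 were lower and none higher, with a median log2 change of -0.29, beside 18.6% of all genes called. CYP79F1, which starts the core pathway, had 98.2, 130 and 147 CPM in GRF1_OE and 193, 241 and 236 CPM in the libraries labelled grf123 (-0.83, SE 0.13; edgeR adjusted p = 0.000479), and the regulator MYB29 14.1 against 24.8 CPM (-0.81, SE 0.16). TGG1, the myrosinase that breaks glucosinolates down, had 436, 818 and 701 CPM against 1440, 1410 and 1640 CPM (-1.20, SE 0.20; edgeR adjusted p = 0.0031). The groups did not overlap for these genes. Of 11 indolic genes 4 were higher and 1 lower (median -0.16; 2 higher without GRF1_OE replicate 1 or grf123 replicate 1), with IGMT1 at 43.2 against 29.3 CPM (0.58, SE 0.12).

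Copper and zinc superoxide dismutases went in both directions, beside 18.6% of all genes called. CSD2, the plastid enzyme, had 68.9, 44.1 and 51.2 CPM in GRF1_OE and 205, 136 and 148 CPM in the libraries labelled grf123 (log2 change -1.59, SE 0.20; edgeR adjusted p = 0.000753). The copper chaperone of these enzymes, CCS, had 36.9, 26.7 and 31.8 CPM against 71.3, 60.2 and 62.7 CPM (-1.04, SE 0.12; edgeR adjusted p = 9.13e-06). All libraries labelled grf123 were above GRF1_OE for both. Chosen after their values were seen, the cytosolic CSD1 was lower, at 46.3 against 67.1 CPM (-0.56, SE 0.15), and CSD3, which is not on the list, higher, at 34.1 against 21.3 CPM (0.59, SE 0.18). CSD1 lost its call without GRF1_OE replicate 2, GRF1_OE replicate 3 or grf123 replicate 3 (edgeR adjusted p = 0.0572 to 0.0768), and CSD3 without any library but GRF1_OE replicate 2 or grf123 replicate 3 (0.0848 to 0.138) or with the length trend removed (0.117). The iron enzyme FSD1, chosen after its values were seen, had 410, 345 and 351 CPM against 125, 218 and 278 CPM; the groups did not overlap, but the change of 0.83 (SE 0.30) did not pass (edgeR adjusted p = 0.127) except with all 12 libraries in the fit (0.0364), without grf123 replicate 1 (0.0033; change 0.56) or without grf123 replicate 3 (0.0149; change 1.12). Of 14 copper and dismutase genes 4 were higher and 4 lower; the higher count was 7 with all 12 libraries in the fit, 0 with the length trend removed and 0 to 2 without GRF1_OE replicates 1, 2 or 3 or grf123 replicates 1 or 2, and the lower count 2 without grf123 replicate 3.

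Iron deficiency genes varied within a group instead. Of 23 tested, 18 had a log2 change above 0 but only YSL1 passed, in the lower direction and not without GRF1_OE replicate 2 or grf123 replicate 3 (-0.67, SE 0.18; 8.23 against 12.8 CPM), and the list's median was 0.37. Without grf123 replicate 1, 7 genes were called higher and the median was 0.62. BTS, an iron-binding ubiquitin ligase, had 520, 561 and 615 CPM in GRF1_OE and 650, 441 and 242 CPM in the libraries labelled grf123. The transcription factor BHLH39 had 58.5, 56.1 and 58.6 CPM against 59, 30.6 and 13.4 CPM. The libraries labelled grf123 thus differed among themselves by more than the groups did, and both genes were chosen after their values were seen. Of 14 nitrate genes 2 were higher and 2 lower, beside 8.64% and 9.91% of all genes tested. Without GRF1_OE replicate 1, GRF1_OE replicate 2 or grf123 replicate 2, 1 was lower. The xylem loading transporter NRT1.5 had 43.1 against 90.9 CPM (-1.08, SE 0.11).

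Markers of other organs and cell types bear on what was harvested. Their calls stand beside 18.6% of all genes called. None of 6 root genes tested passed, with a median log2 change of -0.29, and their summed CPM, mostly the root and hypocotyl glucosidase PYK10, was 898 to 979 in GRF1_OE and 989 to 1280 in the libraries labelled grf123. Only 4 of 14 root hair genes were tested, and RHS13 was higher (2.21 against 0.305 CPM). Of 4 phloem genes, SEOR1 was lower (30.2 against 41.5 CPM; -0.47, SE 0.13), though not without grf123 replicate 3, and SUC2, the sucrose loader of companion cells, had 58.3, 116 and 108 CPM against 178, 169 and 163 CPM without passing (-0.85, SE 0.24; edgeR adjusted p = 0.0601). Of 8 stomatal lineage genes MYB60 was higher (14.5 against 7.74 CPM) and TMM lower (8.47 against 13.6 CPM), the latter not without GRF1_OE replicate 1 or grf123 replicate 3. GL2 was the trichome gene tested and did not pass (-0.06, SE 0.19). Whether such differences in organ share play a part in the changes above was not tested.

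Of floral genes, PI had 8.43, 9.16 and 7.92 CPM in GRF1_OE and 3.12, 0.926 and 2.37 CPM in the libraries labelled grf123 (log2 change 1.86, SE 0.27; edgeR adjusted p = 6.86e-05) and SEP3 16.2, 10.3 and 16.5 CPM against 6.74, 4.94 and 6.34 CPM (1.18, SE 0.21). Both were free of overlap. The other 5 floral organ genes, among them AG and AP1, were under the count filter, at means of at most 1 CPM. With no filter on low counts, 2 floral genes were higher and 1 lower. The median log2 change of the list was then -0.43, against 1.52 over the 2 genes tested. Of seed storage genes only OLEO4 was tested and it did not pass. CRU3, a cruciferin of the seed, was at 0 counts in all GRF1_OE libraries and at 0.164, 13.3 and 25.1 CPM in the libraries labelled grf123, and was chosen after its values were seen. The summed level of the list was 1.78 to 2.08 CPM in GRF1_OE and 2.14, 24.4 and 41.9 CPM in the libraries labelled grf123, the same replicates 2 and 3 in which RD29B and HAI2 were highest. What part seed RNA had in those levels was not tested. Of wax genes, CER1, which makes alkanes, was the only call of 7, with 53.5, 78.4 and 70.9 CPM against 220, 216 and 233 CPM (-1.72, SE 0.12; edgeR adjusted p = 7.36e-09).

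**Figure D5:**
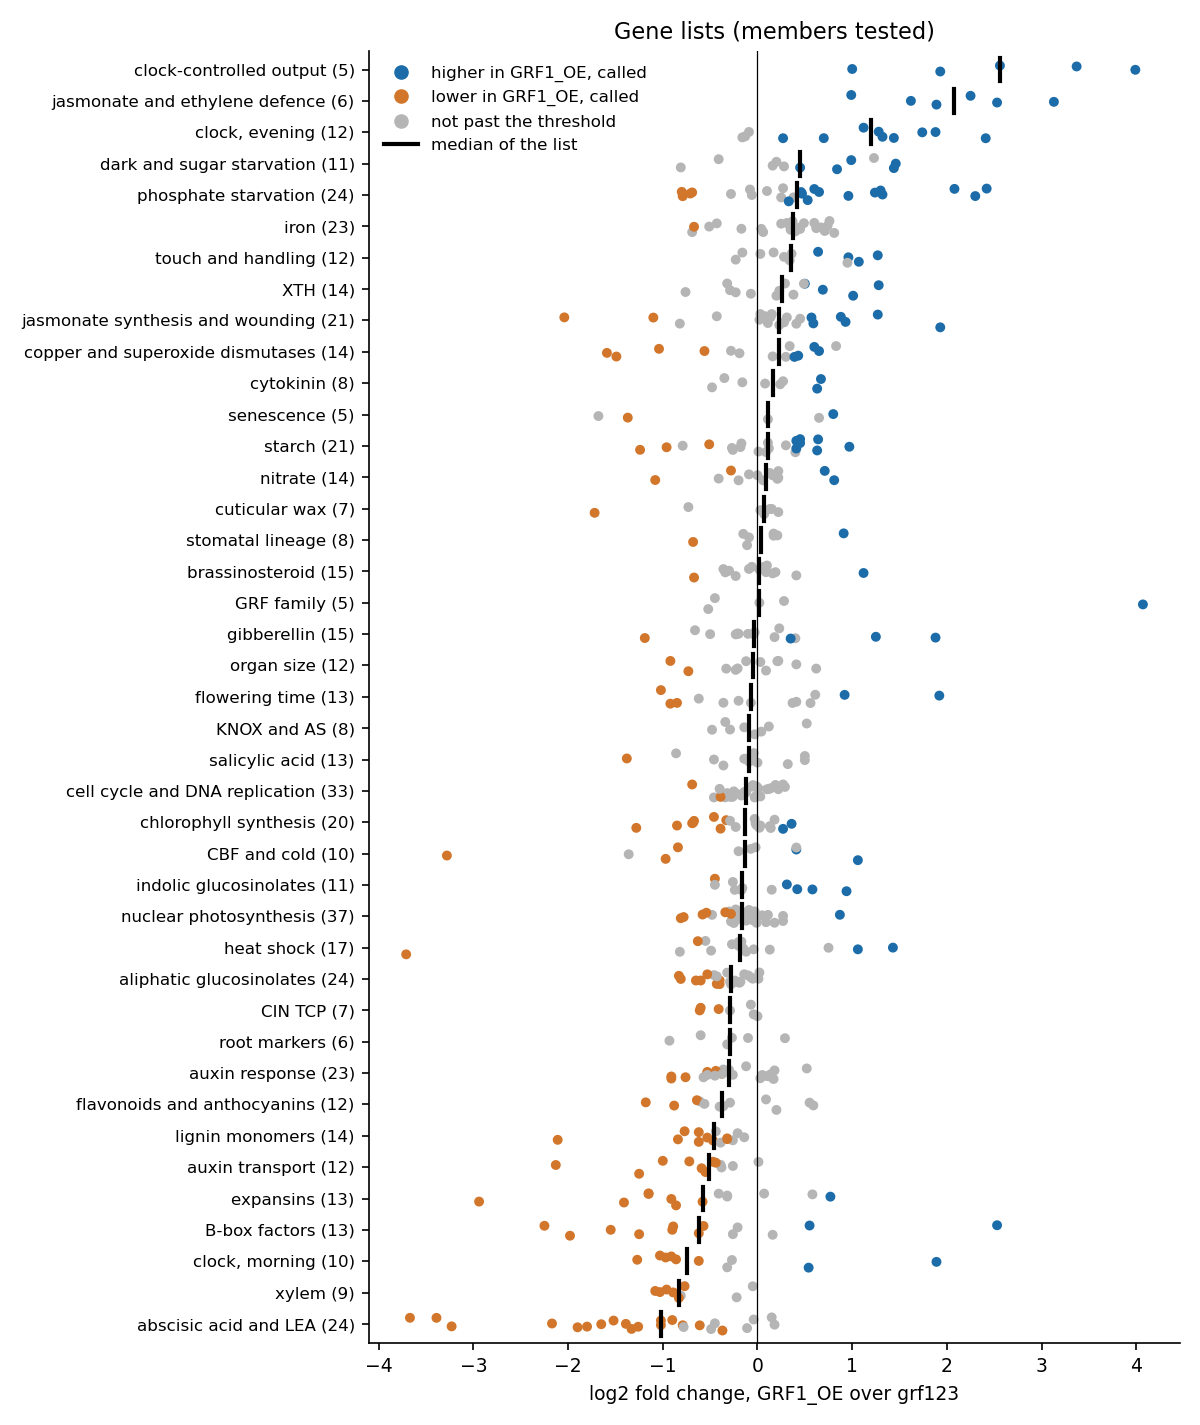
Log2 fold change of each tested member of the gene lists with at least 5 tested members, ordered by median (black bar), with called genes coloured. Clock output, jasmonate and ethylene defence and evening clock genes lie highest, at medians of 2.56, 2.07 and 1.2, and abscisic acid and LEA genes lowest, at -1.02. The lists were chosen with earlier results of these data known.

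Called genes were spread over the chromosomes, with 17.2 to 20.3% of tested genes called on each. In windows of 1000000 bp with at least 20 tested genes, the median log2 change lay between -0.82 and 0.11. The lowest was at chr2:3000001-4000000, where 25 of 55 tested genes were lower and none higher. This stretch holds the nuclear insertion of mitochondrial DNA, whose reads also fit the mitochondrial genome, and all 279 organelle loci were at 0 in the files, so these levels are uncertain. The 4 nuclear ribosomal RNA loci tested were also lower. The motif TGTCAGG, bound by GRF7, was present in 0.93% of the windows of all genes tested, searched on both strands, and in 0.802% of those called higher and 0.758% of those called lower. The median log2 change was -0.03 over the 161 genes that hold it.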

How the data were processed

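Poly(A) RNA of whole plants was sequenced, and 6 of 12 libraries entered the comparison. The authors deposited raw counts per locus, 1 file per library; per the submitters' processing notes the tools were Trimmomatic, TopHat2 2.0.14, HTSeq and DESeq2 and the build TAIR10. No label or header states the strand setting of the counting, and reads of overlapping and antisense loci cannot be told apart. In all, 5547 tested genes overlap another locus. A named gene without remark above can be among them. AT5G23240, LUX, LEA7, RAB18, HSFA3, CAO, LHCB4.2, CESA7, CYCD1;1, TCH3 and NRT1.5 are examples, each with an antisense locus. Rows for reads outside genes or without a unique place, 62.7 to 65.8% of all counted reads in GRF1_OE and 67.8 to 71.6% in the libraries labelled grf123, entered neither library sizes nor tests.

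Of 28775 loci, 28009 (97.3%) were matched to the TAIR10.1 RefSeq annotation, which gave symbols, positions and promoter sequence. Counts were filtered with filterByExpr (minimum count 10, minimum total 15), scaled with TMM and tested with edgeR 4.0.16 (R 4.3.3) by the quasi-likelihood test on the 6 libraries, with Benjamini-Hochberg adjustment over 17328 genes and a threshold of 0.05. The SE is the log2 fold change divided by the square root of the F statistic. In simulated counts of this comparison over 17328 genes, 87 of 100 genes changed 2-fold and 93 of 100 changed 4-fold were recovered, with 25 false calls among 17128 unchanged genes. The simulation changed far fewer genes than were called here. It held no trend of length and no difference in ribosomal RNA between groups, so it does not measure the false calls in these data. Replicates differed by more than sampling noise (chi-square per degree of freedom 2.24 to 7.38), so none was counted as a duplicate.

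The comparison, the 47 gene lists and the tests were chosen with earlier results of these data known. Genes were named by a rule: the GRF and GIF genes, up to 10 called genes per direction with the largest change and a mean of 5 CPM or more in a group, up to 6 per direction with the largest difference in CPM and at least 2-fold, both with a symbol in the annotation and no overlap between groups, and up to 3 called members per list. For genes taken by size of change or difference in CPM, the lack of overlap was thus set by the rule. Other genes given with values were named after their values were seen. Alternatives were RLE and upper-quartile factors, no filter, a minimum of 1 CPM in 3 libraries, DESeq2 1.42.0, all 12 libraries, a replicate block, ribosomal RNA left out, the length or GC trend removed, and each library left out.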

Additional observations from a re-analysis of the deposited data

How the results depend on the processing

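The count of changed genes, 3215 by edgeR, was 2329 with DESeq2, 2590 with the length trend removed, and 2939 with the replicate number as a block (replicate block: 1335 higher, 1604 lower). Same-numbered libraries did not deviate together (correlations -0.07 to -0.01), so the numbers were not taken as pairs. With DESeq2 997 genes were higher, against 1498. Leaving out 1 library gave 2175 to 3249 changed genes, 967 to 1475 higher and 1181 to 1774 lower, with 972 higher without GRF1_OE replicate 2 and 967 without grf123 replicate 2, and with 225 to 311 genes at least 2-fold higher and 280 to 408 at least 2-fold lower. A total of 1482 calls were kept in all 6 of these fits. Under every alternative run, 0 of the calls shared with the edgeR result had the other sign. These fits reuse the same counts, so a change of sign was unlikely from the outset. Over 2752 combinations of a named gene and a setting, 2585 kept their side of the threshold and their direction, 160 lost the call, 7 gained it (GIF1 and FSD1) and none reversed. Libraries of 3557137 to 14277574 gene counts and 3 per group limit what can be called for genes of few counts.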
